A study of Arachis hypogaea with 14 samples.

Results

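The miR319 family was followed in small RNA libraries from peanut (Arachis hypogaea) seeds. Its members were the entries of the deposited small RNA table that carried a miR319 name, isoforms and hairpin arms included, with 1 entry per sequence. This gave 11 of the 795 sequences of the table, which stood on 20 of its 1082 lines. Of these 11, 8 passed the filter on low values, a value of 10 or more in at least 3 libraries, as did 395 of the 795. Small RNAs with the same names had 124 of the 3630 rows of the degradome table, which lists sites where messenger RNA was found cut.

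Seeds came from 2 inbred lines of generation 8, named 8106 (described as a medium-pod variety) and 8107 (described as a super-pod variety), and were sampled 15 and 35 days after flowering (DAF). Line and stage together gave 4 groups of 3 libraries, and no treatment or engineered allele is named. Each pod type is represented by 1 line, so a difference between 8106 and 8107 cannot be told apart from any other difference between these lines. Nothing in the labels ties a replicate to its own plant, so the p-values cover the spread among these libraries only, which may be technical. The 2 degradome libraries, 1 per line, have no replicate, and each is labelled with both stages.

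In plants, miR319 guides the cutting of messenger RNAs of TCP transcription factors of the CINCINNATA type, which in Arabidopsis restrain cell proliferation and promote the switch to maturation in leaves and other organs. It shares most of its sequence with miR159, whose targets are GAMYB-like MYB factors that act in gibberellin responses, flowering and seeds. Plant miRNAs pair with their targets over nearly their whole length, with the least tolerance for mismatches in the 5′ part, so the base at which a form starts bears on which transcripts it can pair with.

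The sequences below are shown because the family splits by where its 5′ end lies. They are the members that the degradome table lists for TCP or GAMYB-like transcripts, with miR159 added for comparison. They are written 5′ to 3′ as the authors' table gives them, with the seed (bases 2 to 8) in capitals. In the names, the prefix stands for the species whose miRNA was matched (mtr, Medicago truncatula; gma, soybean; ahy, peanut), L and R give bases added or removed at the 5′ and 3′ ends, and the number before ss gives substitutions against the matched miRNA.
mtr-miR319a-3p_R+1_2: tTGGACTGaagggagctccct
gma-miR319f_R+1: tTGGACTGaaggggcctcttc
gma-miR319d_L+1R-2: tTGGACTGaaggggagctcct
gma-miR319d_L+1: tTGGACTGaaggggagctccttc
mtr-miR319a-3p_L+1_1ss21CT: tTTGGACTgaagggagctcct
ahy-miR159: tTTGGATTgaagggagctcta

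The first 4 share the seed TGGACTG, which no other entry of the table had. They diverge in their 3′ parts: counted from 1 at the 5′ end of mtr-miR319a-3p_R+1_2 and compared without gaps, gma-miR319f_R+1 differed by A14G, G15C, C19T, C20T and T21C, and gma-miR319d_L+1R-2 by A14G, G15A, C16G, T17C and C18T. Read with a gap, gma-miR319d_L+1R-2 instead holds 1 more G after the shared run of 13 bases and 1 C less near its 3′ end, with AGCTCC kept between them. The longer gma-miR319d_L+1 (23 nt) holds all 21 bases of gma-miR319d_L+1R-2. By contrast, mtr-miR319a-3p_L+1_1ss21CT starts 1 base earlier, as miR159 does, which moves its seed to TTGGACT. It is called the 5′-extended form here after the authors' name. Whether it comes from a miR319 or a miR159 precursor was not tested. It shares a run of 19 bases with mtr-miR319a-3p_R+1_2 at an offset of 1 base, where 20 bases were compared. Aligned end to end it matched ahy-miR159 at 18 of 21 bases, with C7T, C20T and T21A from the 5′-extended form to ahy-miR159. C7T lies inside the seed, and 6 entries of the table carry the resulting TTGGATT, all of them named miR159.

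Entries named for the other strand of the hairpin were present too. The sequences below carry names of the 5′ arm, and the bases in capitals are again positions 2 to 8.
ptc-MIR319a-p5: aGAGCTTTcttcagtccactc
amg-MIR319-p5_2ss12TC20CA: aGGAGCTTcctccagtccaat
mtr-miR319c-5p_L-1R+1_1ss21GA: gAGTTCCTtgcagcccaaaag
ptc-MIR319a-p5 held a run of 10 bases complementary to each of the 5 forms above, and amg-MIR319-p5_2ss12TC20CA a run of 8. In mtr-miR319c-5p_L-1R+1_1ss21GA the longest such run was 4 to 5 bases. Along most of its length that entry resembles gma-miR159a-5p_2ss19TA20TA, an entry named miR159. Which hairpin it comes from was not tested. The 3 members that did not pass the filter are also hairpin arms. Among them gma-MIR319m-p5 held a complementary run of 11 bases, while in gma-MIR319i-p3_1ss10AT and mtr-MIR319b-p5_2ss20CA22AT no run was longer than 5. None of the 11 members had the same 12 values as another entry of the table.

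Levels are the authors' normalized reads, made by a method not given in the sources used here. Library totals ran from 464658 to 1086382 normalized reads, and dividing each value by the smallest step of its library put the reads behind the listed entries at an estimated 580010 to 3243572 per library. Totals differed most at 35 DAF, where they were 998924 to 1086382 in 8106 and 464658 to 527704 in 8107. Scaling all libraries to equal totals therefore moved the median log2 difference of all 395 entries from 0.03 to 1.01 for 8107 against 8106 at 35 DAF, from -0.24 to -0.77 for the stage change in 8106 and from 0.06 to 0.34 for that in 8107. Quantile normalization moved the 35 DAF median to -0.38 and the 8106 stage median to 0.12, and median centring moved the 15 DAF median from -0.09 to -0.34. A library listed 36.0 to 54.5% of the 795 entries at 0. The lowest listed value stood for 6 reads in 11 of the 12 libraries, so a listed 0 is not absence. These are bulk seed libraries, in which fewer cells of a type and less RNA per cell cannot be told apart, and the small RNA table holds no messenger RNA markers against which the seed label could be checked.

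The 5′-extended form, mtr-miR319a-3p_L+1_1ss21CT, was the most abundant member. In 8106 it stood at 967, 1433 and 1274 normalized reads in replicates 1 to 3 at 15 DAF, and at 2919, 5296 and 2411 at 35 DAF. In 8107 it stood at 2723, 3240 and 2612 at 15 DAF and at 2520, 3753 and 2287 at 35 DAF. The 3 libraries of 8106 at 15 DAF lay below all 9 others, and the other 3 groups overlapped. Replicate 2 was the highest library of each group for this form.

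mtr-miR319a-3p_R+1_2, which has the classical miR319 start, separated all 4 groups. It stood at 239, 393 and 305 normalized reads in 8106 at 15 DAF and at 34.7, 72.3 and 44.1 at 35 DAF, the latter from an estimated 86, 216 and 65 reads. In 8107 the values were 1287, 1603 and 1380 at 15 DAF and 1930, 3222 and 1784 at 35 DAF. No library of a group reached the range of the next, and the order from low to high was 8106 at 35 DAF, 8106 at 15 DAF, 8107 at 15 DAF and 8107 at 35 DAF.

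gma-miR319f_R+1 ran in a different order. It stood at 39.0, 58.9 and 55.0 normalized reads in 8106 at 15 DAF, 87.7, 144 and 78.6 in 8106 at 35 DAF, 245, 268 and 242 in 8107 at 15 DAF, and 727, 1121 and 678 in 8107 at 35 DAF. Here too no groups overlapped, but in both lines the later stage was the higher. gma-miR319d_L+1R-2 had the higher values at the early stage in both lines. It stood at 185, 268 and 227 normalized reads in 8106 at 15 DAF against 78.8, 127 and 69.8 at 35 DAF, and at 633, 701 and 623 in 8107 at 15 DAF against 139, 189 and 109 at 35 DAF. The 35 DAF groups of the lines overlapped for this form.

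mtr-miR319c-5p_L-1R+1_1ss21GA, named for the 5′ arm, was low, and its differences between groups depended on the scaling. Its 12 values ran from 11.2 to 35.2 normalized reads, with means of 22.9 ± 1.53 (SD, n = 3) in 8106 at 15 DAF, 29.6 ± 5.73 in 8106 at 35 DAF, 22.1 ± 2.36 in 8107 at 15 DAF and 13.4 ± 1.90 in 8107 at 35 DAF. The lowest 3 libraries were those of 8107 at 35 DAF.

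**Figure D1:**
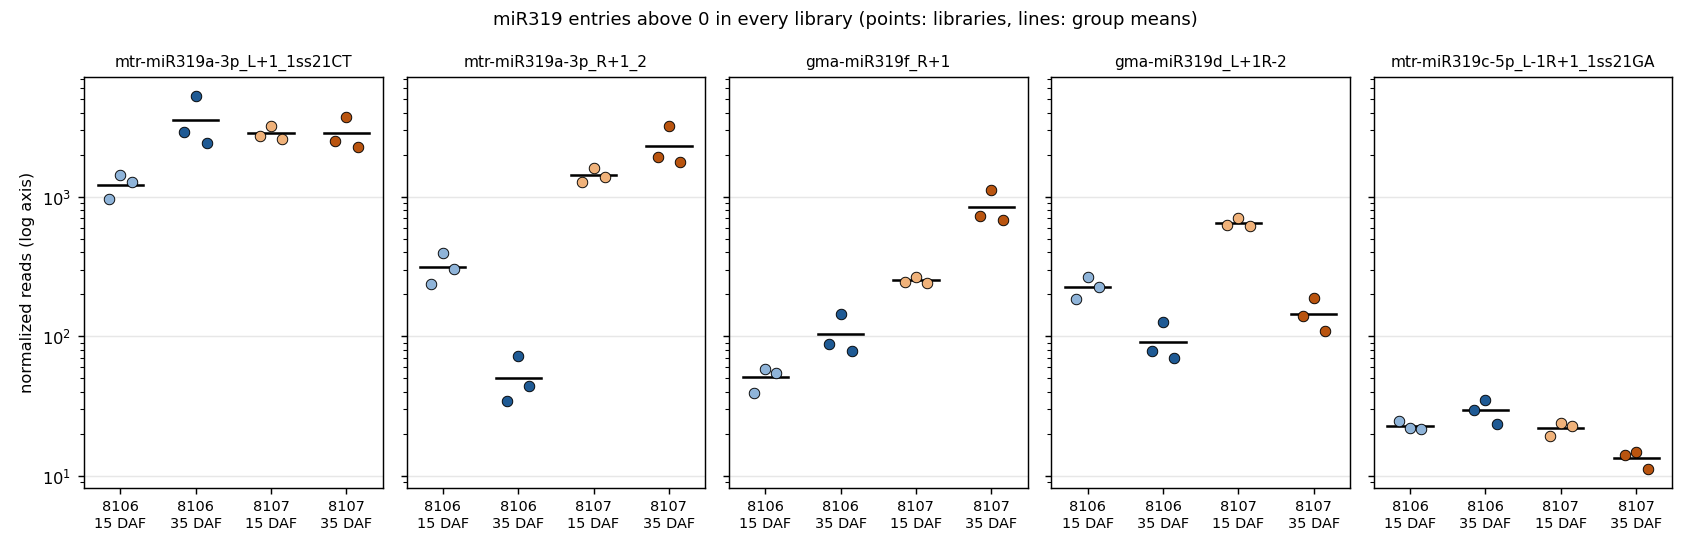
Normalized reads (log axis) of the 5 miR319 entries that were above 0 in every library, by line and stage; points are libraries and lines are means of 3. mtr-miR319a-3p_R+1_2 had its lowest values, 34.7 to 72.3, in 8106 at 35 DAF and its highest, 1784 to 3222, in 8107 at 35 DAF, while mtr-miR319c-5p_L-1R+1_1ss21GA stayed between 11.2 and 35.2.

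At 15 DAF, 4 of the 5 miR319 forms listed for TCP or GAMYB-like transcripts were called higher in 8107 than in 8106. The other, gma-miR319d_L+1, averaged 15.7 normalized reads in 8107 and 4.75 in 8106 and was not called. mtr-miR319a-3p_R+1_2 averaged 1424 ± 162 normalized reads in 8107 and 312 ± 77.1 in 8106 (± SD over 3 libraries each), a 4.56-fold ratio of means. On the log2(value + 1) scale, used for all log2 differences here, the lines differed by 2.21 ± 0.30 (± SE, limma adjusted p = 0.000593). gma-miR319f_R+1 averaged 252 ± 14.0 against 51.0 ± 10.5, a 4.94-fold ratio (2.30 ± 0.27, limma adjusted p = 0.000157), and gma-miR319d_L+1R-2 averaged 652 ± 42.5 against 226 ± 41.6, a 2.88-fold ratio (1.54 ± 0.26, limma adjusted p = 0.00233). For the 5′-extended form the means were 2858 ± 335 and 1225 ± 237, a 2.33-fold ratio (1.23 ± 0.29, limma adjusted p = 0.0143). That last call was lost with median centring (0.99, limma adjusted p = 0.0843), without replicate 1 of 8106 (adjusted p = 0.0601) and without replicate 2 of 8107 (adjusted p = 0.0603).

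Of the 8 tested members, 4 were higher in 8107 at 15 DAF, 0 were lower and 4 did not pass, where 22.5% of all tested entries passed, 15.7% higher and 6.84% lower. In 5 of the 8 the groups did not overlap, as in 44.1% of all entries. The median log2 difference was 1.76 over the 8 members and -0.09 over all 395 entries. gma-miR319d_L+1, ptc-MIR319a-p5 and amg-MIR319-p5_2ss12TC20CA entered the test through 1 high group each and have groups listed at 0, so these counts and medians, here and for the other comparisons, describe the tested members and support nothing by themselves. mtr-miR319c-5p_L-1R+1_1ss21GA did not pass at 15 DAF (-0.05 ± 0.23, limma adjusted p = 0.948).

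At 35 DAF mtr-miR319a-3p_R+1_2 and gma-miR319f_R+1 were again higher in 8107. The former averaged 2312 ± 791 normalized reads in 8107 and 50.4 ± 19.6 in 8106, a 45.9-fold ratio of means and a log2 difference of 5.51 ± 0.30 (limma adjusted p = 1.41e-07). For gma-miR319f_R+1 the means were 842 ± 243 and 103 ± 35.4, an 8.14-fold ratio (3.03 ± 0.27, limma adjusted p = 5.22e-06). Both calls held under every alternative run, with log2 differences of 6.55 and 4.07 under equal library totals and 4.96 and 2.34 under quantile normalization.

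At this stage the 5′-extended form did not pass, at 2854 ± 788 normalized reads in 8107 and 3542 ± 1540 in 8106 (-0.26 ± 0.29, limma adjusted p = 0.488), and its direction depends on the scaling, with 0.79 under equal library totals (limma adjusted p = 0.0251). gma-miR319d_L+1R-2 passed by a narrow margin, at 146 ± 40.6 against 91.9 ± 30.9 (0.67 ± 0.26, limma adjusted p = 0.0495), and that call was lost in 16 of 23 alternatives, among them quantile normalization (0.09). mtr-miR319c-5p_L-1R+1_1ss21GA was lower in 8107 (-1.08 ± 0.23, limma adjusted p = 0.00303), a call lost under equal library totals (-0.08). Of the 8 tested members, 5 were called higher in 8107, 1 was lower and 2 did not pass. Of all tested entries 52.4% passed, 32.2% higher and 20.3% lower. Among the 5 were the arms ptc-MIR319a-p5 and amg-MIR319-p5_2ss12TC20CA, with 8106 listed at 0. Both passed the filter through the libraries in which they are high, so their calls support nothing. In 5 of the 8 the groups did not overlap, as in 52.7% of all entries, and the median log2 difference was 1.85 over the members and 0.03 over all entries.

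**Figure D2:**
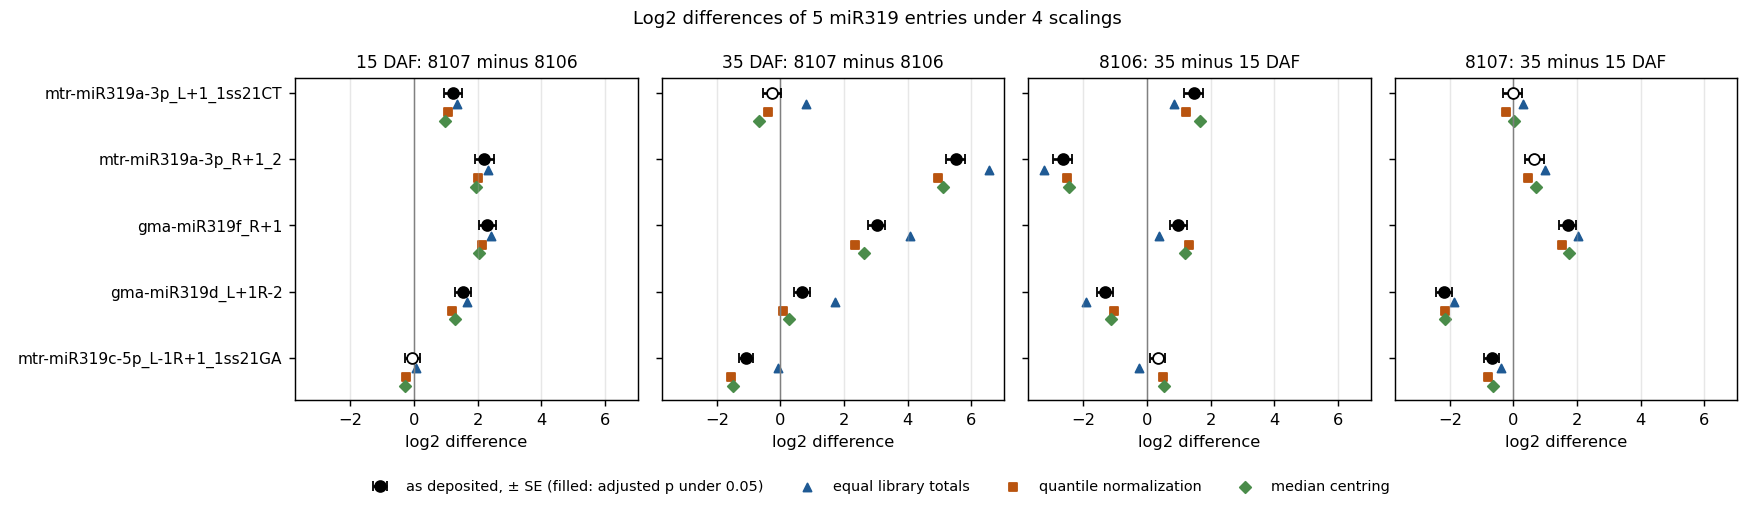
Log2 differences of 5 miR319 entries in 4 comparisons, as deposited (circles with SE bars, filled where the limma adjusted p is under 0.05) and under 3 other scalings. mtr-miR319a-3p_R+1_2 and gma-miR319f_R+1 stay to the right of 0 in both line comparisons under all 4 scalings, whereas the 35 DAF value of mtr-miR319a-3p_L+1_1ss21CT lies at -0.26 as deposited and at 0.79 under equal library totals.

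Between 15 and 35 DAF the forms moved in different directions in 8106. The 5′-extended form rose from 1225 ± 237 to 3542 ± 1540 normalized reads, a 2.89-fold ratio of means (log2 change 1.47 ± 0.29, limma adjusted p = 0.00249). mtr-miR319a-3p_R+1_2, which starts 1 base later, fell to a level 6.20-fold lower, with a log2 change of -2.65 ± 0.30 (limma adjusted p = 5.38e-05), and gma-miR319d_L+1R-2 to a level 2.46-fold lower, with -1.32 ± 0.26 (limma adjusted p = 0.00224). These 3 calls held under every alternative run. gma-miR319f_R+1 rose 2.03-fold (0.98 ± 0.27, limma adjusted p = 0.0146), a call lost under equal library totals (0.38), in a fit of the compared libraries only (limma adjusted p = 0.0695) and without replicate 1 of 8106 at 15 DAF (0.80, limma adjusted p = 0.0595). mtr-miR319c-5p_L-1R+1_1ss21GA did not pass (0.34 ± 0.23, limma adjusted p = 0.309).

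In 8106, 2 of the 8 tested members rose, 2 fell and 4 did not pass, where 36.2% of all tested entries passed, 13.2% rising and 23.0% falling. The groups did not overlap in 4 of the 8, against 44.6% of all entries. The median log2 change was 0 over the members, among which both arms listed at 0 at both stages count as 0, and -0.24 over all entries.

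In 8107 the 5′-extended form stood at 2858 ± 335 normalized reads at 15 DAF and 2854 ± 788 at 35 DAF and did not pass (-0.03 ± 0.29, limma adjusted p = 0.957). gma-miR319f_R+1 rose 3.34-fold (1.70 ± 0.27, limma adjusted p = 0.000515), and gma-miR319d_L+1R-2 fell to a level 4.47-fold lower (-2.19 ± 0.26, limma adjusted p = 7.65e-05). Both calls held under every alternative run. mtr-miR319a-3p_R+1_2 had a ratio of means of 1.62 and did not pass without the replicate block (0.65 ± 0.30, limma adjusted p = 0.103), but passed with the replicate number as a block (limma adjusted p = 0.00504) and under equal library totals (0.98, limma adjusted p = 0.0127). mtr-miR319c-5p_L-1R+1_1ss21GA fell (-0.69 ± 0.23, limma adjusted p = 0.0335), a call lost in 12 of 22 alternatives, among them equal library totals (-0.38).

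The 23-nt gma-miR319d_L+1 stood at 11.4, 12.3 and 23.4 normalized reads in 8107 at 15 DAF and was listed at 0 in all 6 libraries at 35 DAF. In 8106 at 15 DAF it stood at 8.37, 0 and 5.88. It passed the filter only through its libraries of 8107 at 15 DAF. The arms ptc-MIR319a-p5 and amg-MIR319-p5_2ss12TC20CA passed it through those of 8107 at 35 DAF. Their calls in the counts that follow therefore support nothing, and no p-value of them is given. In 8107, the fit called 3 of 8 tested members higher at 35 DAF (gma-miR319f_R+1 and the 2 arms), 3 lower (gma-miR319d_L+1 among them) and 2 in neither direction, where 46.3% of all tested entries passed, 23.0% rising and 23.3% falling. The groups did not overlap in 7 of the 8, against 58.0% of all entries, and the median log2 change was 0.31 over the members and 0.06 over all entries.

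The fit called a difference between the stage changes of the lines for 5 of the 8 tested members, 2 of them arms listed at 0 in 8106, where 41.0% of all tested entries passed (22.3% with the larger change in 8107 and 18.7% with the smaller). For mtr-miR319a-3p_R+1_2 the change in 8107 exceeded that in 8106 by 3.30 ± 0.43 (limma adjusted p = 0.000193), in all alternatives run. For the 5′-extended form it was smaller by -1.50 ± 0.41 (limma adjusted p = 0.0146), a call lost under equal library totals (-0.56, limma adjusted p = 0.242). mtr-miR319c-5p_L-1R+1_1ss21GA gave -1.03 ± 0.33 (limma adjusted p = 0.0288), a call that held in 10 of 21 alternatives and was lost, among others, under equal library totals (-0.14, limma adjusted p = 0.721) and quantile normalization (limma adjusted p = 0.0809). gma-miR319f_R+1 (0.72 ± 0.38, limma adjusted p = 0.147) and gma-miR319d_L+1R-2 (-0.86 ± 0.37, limma adjusted p = 0.0822) did not pass, but both passed with the replicate number as a block (limma adjusted p = 0.0372 and 0.0122). That fit called 7 of the 8 and 53.2% of all tested entries, against 41.0% without the block. The median over the members was -0.07 and that over all entries 0.52.

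Because the forms moved apart, the make-up of the family, whose members were taken by name, shifted. The shares below count the 5′-extended form as miR319. The 4 forms with the seed TGGACTG held 32.2 ± 0.853% of the miR319 sum in 8106 at 15 DAF (mean ± SD, n = 3 libraries), 6.59 ± 0.659% in 8106 at 35 DAF, 44.8 ± 1.19% in 8107 at 15 DAF and 52.0 ± 1.15% in 8107 at 35 DAF. The 5′-extended form held 66.5 ± 0.852%, 92.6 ± 0.779%, 54.5 ± 1.21% and 45.4 ± 1.11% in the same order. No library of a group reached the range of another group for either share. A share within the family does not change with the scaling of a library, and no test was made on it because the members were chosen with earlier results known.

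**Figure D3:**
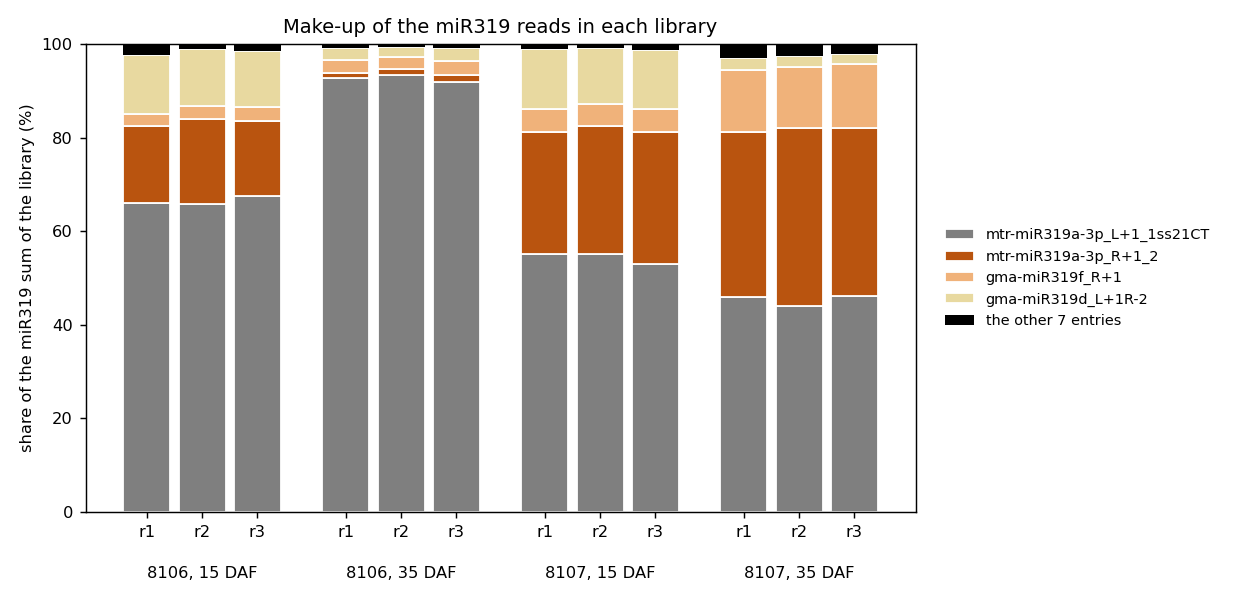
Share (%) of the miR319 sum held by each form in each of the 12 libraries (r1 to r3 are replicates). The 5′-extended form, mtr-miR319a-3p_L+1_1ss21CT, takes 91.8 to 93.3% in 8106 at 35 DAF and 44.1 to 46.1% in 8107 at 35 DAF.

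gma-miR319d_L+1R-2 held 12.3 ± 0.309% of the family in 8106 and 12.5 ± 0.460% in 8107 at 15 DAF, and 2.47 ± 0.209% and 2.32 ± 0.192% at 35 DAF, and the ranges of the lines overlapped at each stage. The share of gma-miR319f_R+1 was 2.76 ± 0.130% and 2.77 ± 0.227% at the 2 stages of 8106, against 4.82 ± 0.221% and 13.4 ± 0.259% in 8107. The ratio of gma-miR319f_R+1 to gma-miR319d_L+1R-2 went from 0.225 ± 0.0160 to 1.12 ± 0.00966 in 8106 and from 0.386 ± 0.00359 to 5.78 ± 0.516 in 8107, so in both lines the order of these forms turned between the stages. The ratio of mtr-miR319a-3p_R+1_2 to the 5′-extended form was 0.254 ± 0.0182 and 0.0146 ± 0.00329 in 8106 at 15 and 35 DAF, and 0.499 ± 0.0282 and 0.801 ± 0.0499 in 8107.

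**Figure D4:**
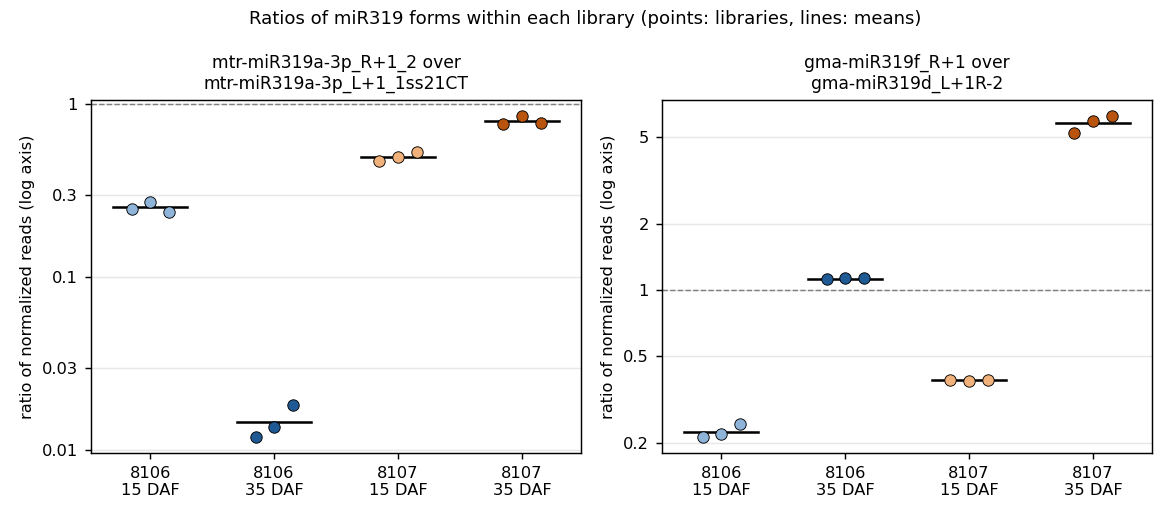
Ratios of normalized reads between miR319 forms within each library (log axes; points are libraries, lines are means of 3, the dashed line marks 1). The ratio of mtr-miR319a-3p_R+1_2 to the 5′-extended form is lowest in 8106 at 35 DAF (0.0119 to 0.0183) and highest in 8107 at 35 DAF (0.766 to 0.858), and gma-miR319f_R+1 exceeds gma-miR319d_L+1R-2 at 35 DAF in both lines.

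Summed over all 11 members, miR319 stood at 1842 ± 358 normalized reads in 8106 at 15 DAF, 3818 ± 1630 in 8106 at 35 DAF, 5241 ± 541 in 8107 at 15 DAF and 6318 ± 1914 in 8107 at 35 DAF. These were 0.273, 0.366, 0.840 and 1.26% of all normalized reads. Against the summed miR159 entries of the same libraries, the miR319 sum was 4.12 ± 0.214, 7.10 ± 0.233, 10.1 ± 0.108 and 14.2 ± 0.824%, so each group held a range of its own. In the deposited values of 8106 the miR319 sum was higher at 35 than at 15 DAF in all libraries. As a share of the library the stages overlapped, at 0.214 to 0.329% at 15 DAF and 0.262 to 0.522% at 35 DAF. The sum of the forms of seed TGGACTG was lower at the later stage, at 594 ± 124 and 246 ± 84.9 normalized reads at 15 and 35 DAF.

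Because the 5′-extended form is so close to miR159, its level was set beside ahy-miR159. It amounted to 11.1 ± 0.602% of ahy-miR159 in 8106 at 15 DAF, 25.7 ± 0.672% in 8106 at 35 DAF, 16.2 ± 0.537% in 8107 at 15 DAF and 18.8 ± 0.377% in 8107 at 35 DAF. The level of ahy-miR159 overlapped between the stages of each line, at 10996 ± 1627 and 13744 ± 5773 normalized reads in 8106 and 17680 ± 2049 and 15140 ± 3848 in 8107. mtr-miR159a_1ss21AT, the most abundant miR159 form, is closer still, matching the 5′-extended form at 19 of 21 bases. Its mean over the 12 libraries was 31999 normalized reads, against 14390 for ahy-miR159. Whether reads of miR159 contribute to the 5′-extended form was not tested.

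The 5 entries named as hairpin arms (MIR with p5 or p3) were all listed at 0 in the 6 libraries of 8106 and above 0 in some library of 8107. The same held for 26 of all 140 hairpin-arm entries (18.6%), and the opposite, listed in 8106 and at 0 in 8107, for 27 (19.3%). The lowest listed values were 0.168 to 4.07 normalized reads in 8106 and 2.42 to 4.81 in 8107. ptc-MIR319a-p5, the arm with the highest values, stood at 13.3, 9.59 and 0 normalized reads in 8107 at 15 DAF and at 118, 160 and 68.9 at 35 DAF. amg-MIR319-p5_2ss12TC20CA stood at 0, 4.11 and 0 at 15 DAF and at 17.1, 23.7 and 13.6 at 35 DAF. For both arms all 3 libraries of 8107 at 35 DAF lay above all 9 others. Both passed the filter through these libraries, so their calls in the counts above support nothing. No p-value of them and no fold against a line listed at 0 is given.

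Of the 3 arms below the filter, mtr-MIR319b-p5_2ss20CA22AT was listed only in 8107 at 35 DAF, at 11.9, 8.95 and 11.2 normalized reads. gma-MIR319i-p3_1ss10AT stood at 6.17, 4.11 and 12.5 in 8107 at 15 DAF and 5.22, 7.16 and 0 at 35 DAF, and gma-MIR319m-p5 was above 0 in 2 libraries, at 2.82 and 8.51.

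The degradome table tied the forms of seed TGGACTG to TCP transcripts. TCP2, TCP3 and TCP4 are named after Arabidopsis factors of the miR319-regulated group. Together they had 96 rows, 77.4% of the 124 rows of miR319 names, on 11 transcripts, and no small RNA of another name was listed for a TCP transcript. TCP2 had 40 rows on 5 transcripts, cut at base 1148 or 1151 of the transcript, TCP3 had 40 rows on 4 transcripts at base 806, and TCP4 had 16 rows on 2 transcripts at base 1154. Each combination of small RNA, transcript and site stood 1 or 2 times in the table (8 and 58 combinations of miR319 names), and the sequence of mtr-miR319a-3p_R+1_2 was listed under a 2nd name, gma-miR319a_R+1, so rows overstate the number of sites. The table gives no library, abundance or category, and each degradome library is labelled with both stages, so a cut cannot be assigned to a line or stage.

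mtr-miR319a-3p_R+1_2, gma-miR319f_R+1 and gma-miR319d_L+1R-2 each listed the same 11 TCP sites, and their alignment scores differed between the targets. A cut at a shared site cannot be assigned to 1 of these forms. The authors' score runs from 0 to 4 in this table, with lower values for a better match. mtr-miR319a-3p_R+1_2 scored 2.5 on TCP2, 3.5 on TCP3 and 3 on TCP4. gma-miR319f_R+1 scored 3 on TCP2, 3.5 on TCP3 and 2.5 on TCP4, while gma-miR319d_L+1R-2 scored 3.5, 3 and 3. The best score on each TCP gene thus belonged to a different form. The longer gma-miR319d_L+1 was listed for the 4 TCP3 sites only, at a score of 4. All 124 rows placed the cut 9 bases before the end of the aligned range, as did 80% of all rows.

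No TCP row belonged to the 5′-extended form. Its 20 rows were 12 on 6 transcripts of GAM1, a GAMYB-type MYB factor and the classical miR159 target, at a score of 4 and bases 841 to 973, and 8 on 4 transcripts of wdr82-b, named after a WD-repeat protein, at a score of 3.5 and base 779. No other small RNA was listed for wdr82-b. All 85 rows of GAM1 came from miR159 or miR319 names. The 6 GAM1 sites of the 5′-extended form were all among the 11 of ahy-miR159 (54.5% of the latter), which scored 3.5 there, and among the 9 of mtr-miR159b (66.7%), which scored 0. mtr-miR159b averaged 4.43 normalized reads and did not pass the filter. mtr-miR159b_1ss18TG and mtr-miR159b_R-1_1ss7GT also held all 6. The far more abundant mtr-miR159a_1ss21AT had 2 GAM1 sites and shared 0 of the 6, as did mtr-miR159a_1ss21AC and lus-miR159c_1ss6AT. The table holds no score above 4, and all rows of miR319 names place the cut 9 bases before the end of the aligned range. The missing TCP rows therefore say only that no such site was listed. Whether the earlier start of the 5′-extended form moves the TCP cuts out of that position was not tested.

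**Figure D5:**
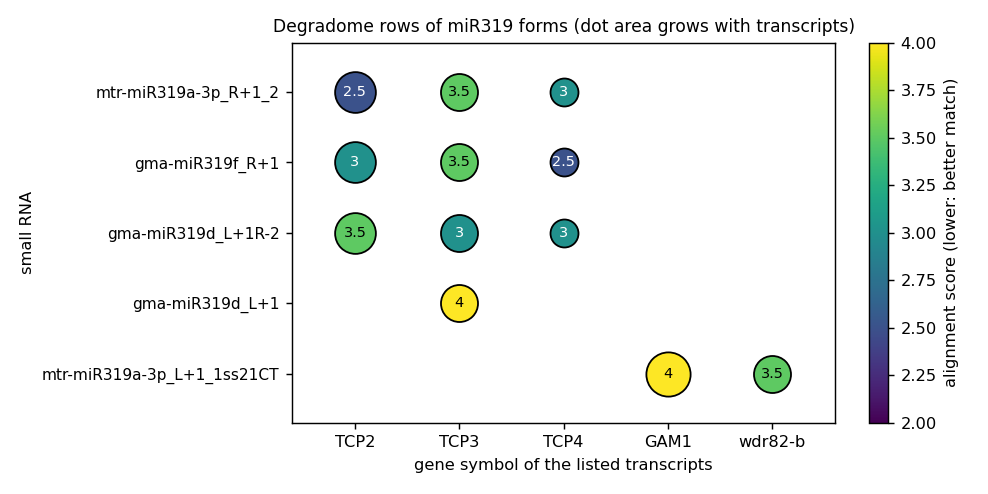
Degradome rows of the miR319 forms listed for TCP or GAM1 transcripts, by gene symbol of the listed transcripts. The number and colour give the authors' alignment score (lower is a better match) and dot area grows with the number of transcripts. The 4 forms of seed TGGACTG fall on TCP2, TCP3 and TCP4 with scores of 2.5 to 4, and the 5′-extended form, mtr-miR319a-3p_L+1_1ss21CT, falls on GAM1 and wdr82-b.

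2 hairpin arms also had degradome rows. ptc-MIR319a-p5 was listed for 3 transcripts of DnaJ-1, the symbol of a DnaJ-type chaperone, at a score of 4, for 1 of MYO6, the symbol of a myosin motor, at 3.5, and for 1 without a symbol. gma-MIR319i-p3_1ss10AT was listed for 3 transcripts without a symbol at 3.5.

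In Arabidopsis, TCP4 raises the precursor of miR396, which restrains growth-regulating factors, and TCP3 raises that of miR164, which restrains NAC factors of the CUC group. These families and miR159 were therefore set beside miR319. Of 4 tested miR396 entries, 3 were higher in 8107 at 15 DAF and 0 lower, where 15.7% of all tested entries were higher, and again 3 and 0 at 35 DAF, where 32.2% were. The most abundant, lja-miR396, stood at 738 ± 48.6 normalized reads in 8107 against 359 ± 21.4 in 8106 at 15 DAF (1.04 ± 0.18, limma adjusted p = 0.0027) and at 2068 ± 218 against 306 ± 86.8 at 35 DAF (2.79 ± 0.18, limma adjusted p = 4.11e-07). Of the 4, 1 rose and 2 fell between the stages in 8106 (13.2% and 23.0% of all tested entries), and 1 rose and 1 fell in 8107 (23.0% and 23.3%).

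Of 9 tested miR164 entries, 0 passed in the line comparison at 15 DAF, where 22.5% of all tested entries did. At 35 DAF 1 was higher and 7 were lower in 8107, where 32.2% of all tested entries were higher and 20.3% lower. At 15 DAF the most abundant, mtr-miR164a, stood at 8327 ± 1609 normalized reads in 8107 and 8137 ± 985 in 8106 (0.02 ± 0.22). At 35 DAF it stood at 1124 ± 216 against 5671 ± 1413, and the limma fit gave -2.32 ± 0.22 there and -2.89 ± 0.22 for the stage change in 8107. Between the stages 1 miR164 entry fell and 0 rose in 8106, where 23.0% of all tested entries fell and 13.2% rose. In 8107, 1 rose and 5 fell, where 23.0% of all tested entries rose and 23.3% fell. Of 11 tested miR159 entries, 1 was higher and 2 lower at 15 DAF and 2 higher and 1 lower at 35 DAF, and 3 fell and 0 rose in 8106 and 1 rose and 1 fell in 8107, each beside the same shares of all entries. Its most abundant form, mtr-miR159a_1ss21AT, passed in none of the comparisons, with log2 differences of 0.07 at 15 DAF and -0.45 at 35 DAF (0.61 and limma adjusted p = 0.048 under equal library totals). Levels of TCP transcripts were not measured here.

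Likeness to other known entries was described with Pearson's r of log2(value + 1) over the 12 libraries among 165 known entries, which share libraries and scaling with miR319, and no test was made. Nearest to the 5′-extended form were mtr-miR166b_2ss20TC21AT (r = 0.951), gma-miR4376-5p_R-1_2ss16AG21GA (0.95), mtr-miR396a-5p (0.896), ptc-miR6478_R-2 (0.873) and mtr-miR1507-3p_R-3 (0.818). Nearest to ptc-MIR319a-p5, taken for its fitted line difference at 35 DAF, were lja-miR396 (0.944), nta-miR156a_R+3_1ss11GA (0.915), sly-miR167b-3p (0.893), mtr-miR395a_L-1R+1_1ss21CT (0.889) and mdm-miR482a-5p_L-1_2ss11TG20AT (0.885). That choice depends on the pseudocount, since 8106 was listed at 0: at a pseudocount of 5 the difference of ptc-MIR319a-p5 was 4.52 and that of mtr-miR319a-3p_R+1_2 was 5.39.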

How the data were processed

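Small RNA libraries (single reads of 50 bases) and degradome libraries, which capture fragments with a 5′ monophosphate, were made from seeds, per the labels' protocols. Bowtie is named in the submitters' processing notes, without its version or role, and a genome build was not given in the sources used here. The small RNA table holds a signal per library, which per the file headers is normalized reads. Values up to 200 steps were whole multiples of 1 step per library in 99.2 to 100% of cases (tolerance 0.02 steps), and dividing by the step gave the estimated reads. The degradome table holds an alignment score, per the file headers, for 1196 transcripts, none of which matched the reference table of gene symbols. Symbols are therefore the authors'.

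Values were taken as log2(value + 1) and fitted with limma-trend (limma 3.58.1, R 4.3.3), with a mean for each group and without a block. Entries had to reach 10 in 3 or more of the 12 libraries, which left 395, and p-values were adjusted over all 395 by Benjamini-Hochberg, with a threshold of 0.05. A log2 difference on this scale understates the change of low entries. The script was tested on simulated data. Levels are mean ± SD over 3 libraries. Members, lists and tests were chosen with earlier results of these data known. Every member that passed the filter is named, as are all target symbols of miR319 names, the most abundant entry of each related family and the 5 most alike entries of 2 members.

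Replicate numbers come from the labels. Deviations from the group means were correlated between same-numbered libraries. The values were 0.148 to 0.542 between the lines at 15 DAF, 0.122 to 0.677 between the stages of 8106 and 0.159 to 0.512 between those of 8107. All were over 0.1, so pairing by number was treated as possible there. At 35 DAF the lowest was 0.039, and the numbers were not taken to pair the lines there. Over all groups 17 of 18 same-numbered pairs were over 0.1, as were 8 of 36 differently numbered pairs. Replicate 1 of 8106 at 15 DAF correlated at 0.5935 with replicate 3 at 35 DAF, against 0.3195 with replicate 1. In 8107 these values were 0.3654 and 0.1587. The correlations therefore do not establish pairing by number. Unless an alternative is named, calls come from the fit without a block, which leaves out any pairing. Calls with the replicate block rest on an assumed pairing. Alternatives were 3 other scalings, pseudocounts of 0.5 and 5, no filter and a stricter one, the replicate block, a fit of the compared libraries only, each library left out in turn, 1 entry per set of identical values and, chosen after seeing the data, voom on the estimated reads.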

Additional observations from a re-analysis of the deposited data

Results flagged for a closer look

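For 3 miR319 entries with values in both lines the stage change differed between 8106 and 8107 by the test of that difference (limma, adjusted over 395 entries). The change in 8107 exceeded that in 8106 by 3.30 log2 units for mtr-miR319a-3p_R+1_2, which fell in 8106, where all 3 libraries at 35 DAF lay below all 3 at 15 DAF, and whose change in 8107 did not pass without the replicate block (limma adjusted p = 0.103) and passed with it (limma adjusted p = 0.00504), under equal library totals and with voom. It differed by -1.50 for the 5′-extended form mtr-miR319a-3p_L+1_1ss21CT and by -1.03 for mtr-miR319c-5p_L-1R+1_1ss21GA. The first was called in 20 of 22 alternatives and the second in 10 of 21. For the hairpin arms ptc-MIR319a-p5 and amg-MIR319-p5_2ss12TC20CA the fitted differences were 4.37 and 3.44, and these equal the changes in 8107, since both arms were listed at 0 in all 6 libraries of 8106. Both passed the filter through their libraries of 8107 at 35 DAF, so these differences are values and not tests.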

How the results depend on the processing

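Of 830 member values recomputed under the alternatives, 742 kept direction and side of the threshold, 52 lost a call, 19 gained 1 and 17 changed sign. Much of this agreement was fixed in advance. Changing the filter, dropping identical entries or leaving out a library of another group keeps the log2 difference and can move only its p-value. The 830 also include gma-miR319d_L+1 and the arms, which passed the filter through 1 high group each. The counts of called miR319 entries, 4, 6, 4, 6 and 5 for 15 DAF, 35 DAF, the stage changes of 8106 and 8107 and their difference, ran over 3 to 5, 5 to 6, 3 to 5, 5 to 6 and 4 to 6 with 1 library left out. With all libraries kept, 22.5, 52.4, 36.2, 46.3 and 41.0% of all tested entries were called. The stricter filter, which keeps 5 miR319 entries, gave 3 for the 8107 stage change and 3 for the difference of stage changes. Voom, with 8 tested, also gave 3 for the latter. In the same order, 59.0, 59.5 and 42.8% of all tested entries were called. Under equal library totals the mean miR319 sums of 8107 were 5932 at 15 DAF and 8913 at 35 DAF. Those of 8106 were 1930 at 15 DAF and 2588 at 35 DAF, the latter against 3818 as deposited.

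Signs changed for mtr-miR319c-5p_L-1R+1_1ss21GA at 15 DAF (0.0625 under equal totals, 0.0683 with voom, -0.1069 to 0.0366 with 1 library left out, above 0 without replicate 1 of 8106 or of 8107) and in 8106 (-0.24 and -0.19 under equal totals and voom). They changed for the 5′-extended form at 35 DAF (0.79 and 0.79, and -0.4967 to 0.0707 with 1 library left out, above 0 without replicate 2 of 8106) and in 8107 (0.30 and 0.31, 0.0195 with median centring, and -0.2451 to 0.112 with 1 library left out, above 0 without replicate 2 at 15 DAF or replicate 1 or 3 at 35 DAF), and for gma-miR319d_L+1R-2 in the difference of stage changes (0.0633 and 0.0756). The cause was not tested.

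With the replicate block the counts were 5, 6, 4, 7 and 7. Of all tested entries 36.7, 64.1, 43.5, 58.2 and 53.2% were called. That the replicate numbers pair libraries is assumed in this fit and was not established. The block added ptc-MIR319a-p5 at 15 DAF, mtr-miR319a-3p_R+1_2 in 8107, and gma-miR319f_R+1 (limma adjusted p = 0.0372) and gma-miR319d_L+1R-2 (0.0122) in the difference of stage changes, and it changed no other call. ptc-MIR319a-p5 passed the filter through its libraries of 8107 at 35 DAF and was listed at 0 in 8106, so its call supports nothing. Over all 395 entries the 15 DAF count was 89 and became 145 with the block, 42 and 47 without replicates 1 and 3 of 8106 and 51 and 52 without replicates 2 and 3 of 8107. Counts of 207 at 35 DAF and 183 in 8107 became 134 and 118 with the stricter filter, which tests 200 entries, so that the share called went from 52.4 to 67.0% and from 46.3 to 59.0%, and the former 137 with the compared libraries only, a fit that cannot give the difference of stage changes. Entries at a few reads, as the arms in 8107 at 15 DAF, lie near the listing limit of 6 reads.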
